A study of Homo sapiens with 40 samples.

Results

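RNA bound to polysomes was compared with total RNA in resting BEAS-2B cells. BEAS-2B is an immortalised line of human lung epithelium, and these cells carried a control short hairpin and had received no cytokine. The comparison used all 5 polysome and all 5 total RNA (input) libraries that the labels give for this genotype and treatment, 10 of the 40 libraries of the series. The series used Frac-seq, in which a lysate is split by polysome fractionation and RNA is sequenced from the unfractionated lysate and from the polysome fraction. The other 30 libraries came from the same line with IL-13, or from a line in which a hairpin targets the RNA-binding protein IGF2BP3, with and without IL-13. Cells of every group were grown in RPMI with serum and then starved overnight in medium with 2% serum, with harvest 24 h after the point of stimulation. Both hairpins were constitutive, and the control hairpin was represented by 1 line. The column names write siC where the growth protocol speaks of a stable hairpin line. RNA was extracted with TRIzol LS, treated with DNase and selected for poly(A) tails. The labels do not say that libraries came from separate cultures, so p-values measure the spread between these libraries, which may be technical.

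Ribosomes load onto an mRNA by initiating at its start codon and leave at its stop codon, and an mRNA that carries several ribosomes at once sediments as a polysome. How many ribosomes it carries depends on how often translation starts, how fast ribosomes move and how long the coding sequence is, so a very short coding sequence has room for few. RNAs that stay in the nucleus, RNAs translated inside mitochondria and mRNAs held in repressed particles are background examples of RNA that is found in total RNA but little on cytosolic polysomes.

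Total estimated counts lay between 10075876 and 26924954 in the polysome libraries and between 24303049 and 34181156 in the input libraries. The typical biological coefficient of variation was 0.585 among polysome and 0.418 among input libraries. The 2 libraries numbered 1 stood apart. Their mean correlation with the rest of their group was 0.944 in polysome and 0.960 in input, where the others had 0.949 to 0.959 and 0.974 to 0.979. Immediate early genes, which respond to stimuli within minutes, held 0.802% of the counts of polysome library 1 and 0.963% of input library 1, against 0.0985% to 0.143% and 0.121% to 0.186% in the others. Results are therefore also given without the pair of libraries numbered 1 where this changed the count of a list by more than 1.5 times or ended the call of a named gene. The epithelial keratins KRT8, KRT18, KRT7 and KRT19 measured 998, 577, 167 and 27.1 CPM in input, and ELF3 measured 20.9 CPM. The epithelial adhesion genes CDH1 and EPCAM measured 1.72 and 0.666 CPM, and NKX2-1 and CLDN4 1.27 and 0.594 CPM. The basal cell markers KRT5 and TP63 measured 0.192 and 0.0265 CPM. All 8 mesenchymal markers were tested. In input, VIM, FN1 and CDH2 measured 1812, 555 and 75.7 CPM. ZEB2, TWIST1, ZEB1, TWIST2 and SNAI2 measured 33.9, 11.3, 5.79, 3.74 and 2.05 CPM. The 9 markers of ciliated and secretory airway cells were all under 1 CPM, with SCGB1A1 at 0. Of 8 fibroblast markers, DCN, LUM and DPT were at 0 and COL1A1 measured 646 CPM, and the list summed to between 429 and 1253 CPM in input. Of the leukocyte markers PTPRC, TYROBP and CD3E were at 0, whereas CD14 and CD68 measured 18.1 and 10.4 CPM in input, and the list summed to between 16.4 and 48.0 CPM. The part of such cells in the results was not tested. CPM values are estimated counts divided by the TMM-scaled library size and brought to a common total. They are not scaled for length and are compared only within a gene. Every value is a share within its library, so the data show which RNAs took a larger or smaller part of polysome RNA than of total RNA and not how much RNA was on polysomes. In bulk RNA, fewer cells of a type and less RNA per cell cannot be told apart.

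Of 16735 genes tested with edgeR's quasi-likelihood test, 40.2% were called at a Benjamini-Hochberg adjusted p under 0.05, 17.4% as higher and 22.8% as lower on polysomes. Libraries of the fractions did not overlap for 25.5% of genes, with polysome above input for 9.84% and below for 15.6%. The median log2 fold change over all genes was -0.20, with quartiles of -1.02 and 0.55. The 5 largest rises, among genes of 10 CPM or more in either fraction whose libraries did not overlap, included 1 abundant mRNA. PRDX1 (ENSG00000117450.15), a peroxiredoxin that reduces hydrogen peroxide, measured 1326, 2142, 2019, 2164 and 2796 CPM in polysome libraries 1 to 5 and 388, 345, 455, 459 and 590.1 CPM in the input libraries of the same numbers. Every polysome library was above every input library, and the log2 fold change was 2.22 ± 0.249 (SE, adjusted p = 3.12e-09 by edgeR). NECAP1, an adaptor protein of clathrin-coated vesicles, rose by 2.69 on the log2 scale, from 8.25 ± 3.59 to 53.4 ± 21.2 CPM (SD, n = 5). H1-3, a linker histone, rose by 2.45, and 2 genes without a symbol, ENSG00000267303.1 and ENSG00000260257.2, rose by 3.16 and 2.36.

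The 5 largest falls were all in genes of over 4000 coding nucleotides (nt). PRKDC (ENSG00000253729.9) encodes the catalytic subunit of the DNA-dependent protein kinase and has a coding sequence of 12384 nt. Its polysome libraries measured 6.26, 14.6, 12.6, 7.53 and 9.92 CPM and its input libraries 263, 581, 555, 392 and 255 CPM. The lowest input library was well above the highest polysome library, and PRKDC was 40.1-fold lower on polysomes (log2 fold change -5.33 ± 0.382 SE, edgeR adjusted p = 2.18e-13). KMT2D, a histone methyltransferase with 16611 coding nt, fell by 5.15, and UBR3, a ubiquitin ligase with 5664 coding nt, fell by 5.08. DHX29, a helicase of translation initiation, and ALMS1, a centrosomal protein, had no count in any polysome library against 13.6 ± 7.87 and 12.1 ± 7.30 CPM in input (SD, n = 5). Against a floor of 3 counts per library they were at least 56.1-fold and at least 49.9-fold lower.

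**Figure D1:**
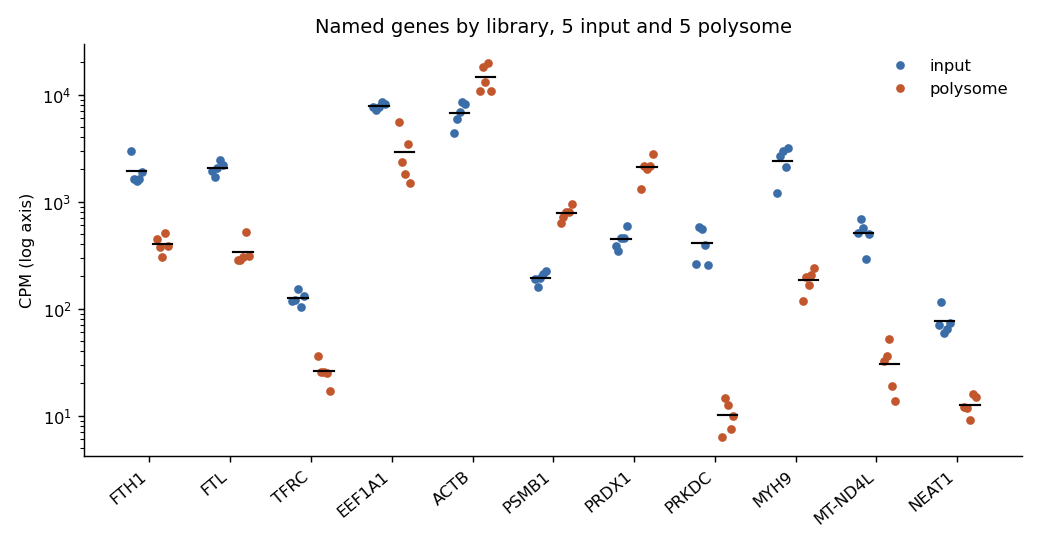
CPM of 11 genes (log axis) in each of the 5 polysome and 5 input libraries of unstimulated control cells, 1 point per library, with bars at the group means. FTH1, FTL, TFRC, EEF1A1, PRKDC, MYH9, MT-ND4L and NEAT1 have every polysome point below every input point, and ACTB, PSMB1 and PRDX1 have every polysome point above.

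Coding length ordered the genes along a curve with a single peak. Among 13428 nuclear protein-coding genes tested, the median log2 fold change was -0.81 for the 170 genes with 150 to 250 coding nt, of which 2 were higher and 88 lower, and -0.69 for the 19 genes under 150 nt. It rose through -0.15 at 350 to 450 nt and 0.36 at 550 to 650 nt to 0.65 at 750 to 850 nt, where 271 of 608 genes were higher and 47 lower. From there it fell through 0.63 at 850 to 1000 nt, -0.52 at 2000 to 2500 nt and -0.82 at 2500 to 3000 nt to -2.55 at 6000 nt and over, where 0 of 335 genes were higher and 280 lower. The median was above 0 from 450 to 1500 nt. Across genes, which are not independent replicates, Spearman's correlation of coding length with the log2 fold change was -0.60 over the 9069 genes of at least 1000 coding nt and 0.35 over the 2780 genes under 750 coding nt.

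**Figure D2:**
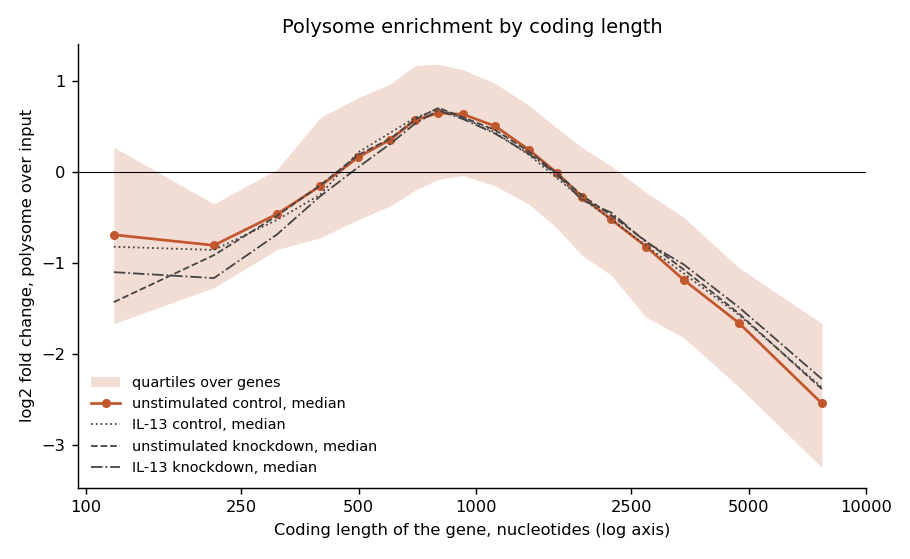
Log2 fold change of polysome against input (vertical axis) by coding length in nt (horizontal axis, log scale) for nuclear protein-coding genes, with the median (line with points) and quartiles (band) of each length bin and, as broken lines, the medians of the other 3 settings of the series. In resting control cells the median peaks at 0.65 for 750 to 850 nt and falls to -0.81 at 150 to 250 nt and to -2.55 at 6000 nt and over.

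In 5 wider classes, genes under 500 coding nt had 13.9% called higher and 27.9% lower. Genes of 500 to 1000 nt had 41.7% higher and 9.48% lower. Genes of 1000 to 2000 nt had 24.3% higher and 12.6% lower. Genes of 2000 to 4000 nt had 3.14% higher and 43.0% lower, and genes of 4000 nt and over 0.323% higher and 76.1% lower. Of those 930 longest genes, 3 were higher and 708 lower. The 3, named after their values were seen, were CRYBG2 at 2.90 CPM on polysomes and ROBO3 and TRPM2 at 1.33 CPM and 0.134 CPM. None of these 3 was called without the libraries numbered 1.

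The shares of each library's counts moved in the same way. Genes of 4000 coding nt and over held 1.30%, 1.42%, 1.39%, 1.21% and 1.12% of the counts of polysome libraries 1 to 5 and 4.46%, 6.88%, 6.50%, 4.37% and 6.04% of the input libraries. No polysome library reached the lowest input library, and the means were 1.29% ± 0.127 and 5.65% ± 1.17 (SD, n = 5). Genes of 500 to 1000 nt held 34.8%, 35.1%, 37.6%, 34.8% and 39.7% of polysome counts and 24.2%, 22.0%, 22.6%, 24.8% and 22.7% of input counts, again without overlap. Genes of 1000 to 2000 nt held 39.3% ± 3.20 and 34.6% ± 0.364, and genes of 2000 to 4000 nt 9.39% ± 0.808 and 17.2% ± 1.19 (SD, n = 5). Each of these 4 classes gave p = 0.00794 in a two-sided exact permutation test, the smallest that 5 libraries against 5 allow, or 0.0147 after adjustment over the 24 classes of length, GC content and biotype tested. Genes under 500 nt held 12.0% ± 1.91 of polysome and 13.5% ± 1.63 of input counts (SD, n = 5), a difference within the spread between libraries (exact permutation test, adjusted p = 0.307).

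**Figure D3:**
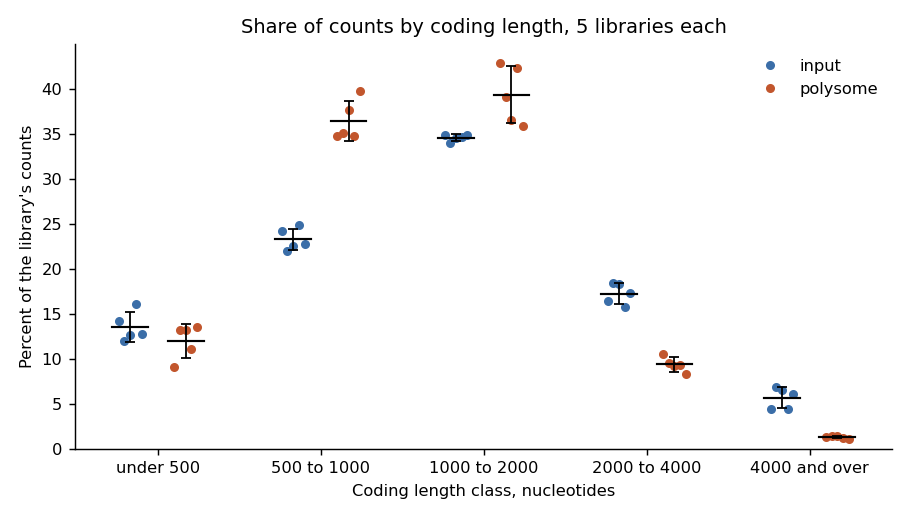
Percent of each library's estimated counts in 5 classes of coding length, 1 point per library with the mean and SD of 5 polysome and 5 input libraries. Polysome and input points are apart in all classes except under 500 nt, where means are 12.0% and 13.5%.

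The most abundant members of the extreme classes followed their class in part. At 4000 coding nt and over, the genes of highest input level were MYH9, FLNA and TLN1, which encode nonmuscle myosin heavy chain, filamin and talin. MYH9 (ENSG00000100345.23) measured 119, 197, 166, 208 and 242 CPM on polysomes and 1216, 2665, 2974, 2099.8 and 3150.1 CPM in input. It was 13.0-fold lower without any overlap (log2 fold change -3.70 ± 0.267 SE, edgeR adjusted p = 2.31e-13). TLN1 fell by 3.58 and FLNA by 2.78. Under 500 coding nt, the 3 most abundant genes went different ways. PPIA, the peptidyl-prolyl isomerase cyclophilin A, has 495 coding nt and was 2.83-fold higher. HMGN2, a nucleosome-binding protein of 270 coding nt, had a log2 fold change of 0.14 ± 0.254 (SE, edgeR adjusted p = 0.697). RPL41, treated with the ribosomal proteins, fell by 2.42. PPIA, HMGN2, RPL41 and other abundant short mRNAs have processed pseudogenes, so the division of their reads between near-identical copies is uncertain.

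Transcript length, UTRs included, also had its highest median in an intermediate class and its lowest in the longest, but separated the fractions little at the short end. Over the 2780 genes under 750 coding nt, Spearman's correlation with the log2 fold change was 0.03 for transcript length and 0.35 for coding length. Transcripts of 1000 to 2000 nt had a median of 0.57, with 1129 of 2705 genes higher and 269 lower, and those of 8000 nt and over had -1.21, with 41 of 934 higher and 529 lower. The shortest, under 1000 nt, had -0.10, with 152 of 745 higher and 163 lower, and the median was -0.27 among genes of at least 10 CPM and 0.003 without input library 4. Transcripts of 1000 to 2000 nt held 36.1% ± 1.85 of polysome and 24.2% ± 1.97 of input counts (SD, n = 5, exact permutation test, adjusted p = 0.0147), and those under 1000 nt 8.48% and 8.70% (adjusted p = 0.828, same exact test). FASN, fatty acid synthase, was with FLNA and TLN1 among the most abundant transcripts of 8000 nt and over, and it fell by 3.58 on the log2 scale. RPL7A, the most abundant transcript under 1000 nt, encodes a ribosomal protein over 798 coding nt and rose by 0.82.

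Coding and transcript length were crossed to see each at a fixed class of the other. Among transcripts of 8000 nt and over, the median was 0.11 for the 70 genes with 500 to 1000 coding nt, -0.23 for 1000 to 2000, -1.04 for 2000 to 4000 and -2.14 for the 401 genes of 4000 coding nt and over. Transcripts of this length with 500 to 1000 coding nt were thus above the median of all genes. At a fixed coding length of 500 to 1000 nt, the median was 0.42 in the 268 transcripts under 1000 nt and 0.75 in those of 1000 to 2000 nt, and then 0.53, 0.37, 0.21 and 0.11 as transcripts lengthened. At 4000 coding nt and over it went from -1.21 in the 65 transcripts of 3000 to 5000 nt to -1.82 and -2.14. The 3′ UTR alone had a smaller range: medians ran from 0.07 for genes with under 300 nt of 3′ UTR to -0.42 for those of 4000 nt and over. Within 500 to 1000 coding nt they ran from 0.70 to 0.22, and within 4000 coding nt and over they were -1.88, -2.03, -2.11, -1.91 and -1.59 from the shortest to the longest 3′ UTR. Across the 13428 genes, Spearman's correlation with the log2 fold change was -0.45 for coding length, -0.40 for transcript length, -0.14 for 3′ UTR length, -0.02 for 5′ UTR length and 0.15 for GC content. For a gene's average log2 CPM over the 40 libraries it was 0.24, so genes of low level tended to have lower values. Among genes of at least 10 CPM the median log2 fold change was -0.07, against -0.20 over all genes tested. The part of expression level in the list medians was not tested.

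GC content separated the fractions less. The median log2 fold change was -0.42 for transcripts under 40% GC and 0.06 for those of 60% GC and over, which was -0.09 without polysome library 4. The share of counts did not pass the exact permutation test in any of the 6 GC classes, with adjusted p between 0.114 and 0.992. In the class under 40% GC, polysome libraries held 5.07%, 6.23%, 6.44%, 2.73% and 3.73% of their counts, on both sides of the input range of 4.52% to 5.92%. The polysome libraries numbered 4 and 5 were the low ones.

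A change of transcript within a gene was looked for with a length per gene and library taken from the deposited count divided by TPM. Of 10414 genes, 33 had transcripts over 1.5-fold longer on polysomes and 58 over 1.5-fold shorter, together 0.874%. The mean transcript length weighted by TPM was 1951 ± 74.9 nt on polysomes and 2066 ± 93.3 nt in input (SD, n = 5). The mean coding length was 880.2 ± 43.4 and 942 ± 48.8 nt (SD, n = 5). The mean 3′ UTR length was 832 ± 41.5 and 879 ± 44.9 nt (SD, n = 5). All 3 were shorter on polysomes by less than the libraries' spread could separate (exact permutation tests, adjusted p = 0.111 for each).

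Protein-coding RNA took a larger share of polysome than of input counts, and every other biotype that passed the test took a smaller one. These are shares of 1 total, so the results are not independent. Protein-coding genes gained 4.13 points of the counts, while mitochondrial genes lost 3.77 and long noncoding RNAs 0.172. Nuclear protein-coding genes held 98.4% ± 0.252 of polysome and 94.3% ± 0.899 of input counts (SD, n = 5, exact permutation test, adjusted p = 0.0147). Genes of the mitochondrial genome, 15 of which were tested, held 0.487%, 0.666%, 1.11%, 0.411% and 0.500% of polysome counts and 4.43%, 5.40%, 4.14%, 2.94% and 5.09% of input counts. The highest polysome library was below the lowest input library. Of the 13 mitochondrial mRNAs, which are translated by mitochondrial and not by cytosolic ribosomes, 12 were lower, and MT-ND6, at -1.88, did not pass. MT-ND4L (ENSG00000212907.2), a complex I subunit, measured 32.7, 36.2, 52.1, 19.1 and 13.6 CPM on polysomes and 511, 695, 563, 293 and 495 CPM in input, a fall of 4.05 ± 0.553 on the log2 scale (SE, edgeR adjusted p = 1.64e-07). MT-ATP8, an ATP synthase subunit, fell by 3.63.

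Among 1801 long noncoding RNAs, 42 were higher (2.33%) and 268 lower (14.9%), with a median of -0.54. Both shares were under those over all genes tested, 17.4% and 22.8%. Long noncoding RNAs, tested or not, held 0.290% of polysome and 0.462% of input counts. NEAT1, the scaffold of nuclear paraspeckles, measured 12.0, 11.7, 9.02, 15.8 and 14.8 CPM on polysomes and 70.7, 116, 58.7, 64.5 and 73.4 CPM in input, without overlap. Of 9 nuclear long noncoding RNAs listed, NEAT1, MALAT1 and FTX were lower and none was higher. FTX, named after its value was seen, was not called without the libraries numbered 1 (edgeR adjusted p = 0.187). MALAT1, a nuclear speckle RNA, was the least even of them on polysomes, at 3.76, 37.2, 15.7, 5.95 and 11.6 CPM against 40.0, 54.8, 55.4, 73.7 and 48.8 CPM in input. Of 26 noncoding host genes of small nucleolar RNAs, 12 were lower and none higher, with a median of -1.51. Among them GAS5 and SNHG6 each fell by 2.22. Of 227 pseudogenes other than processed ones, 7 were higher (3.08%) and 38 lower (16.7%). Of 439 processed pseudogenes, 28 were higher (6.38%) and 50 lower (11.4%). These shares too were under those over all genes.

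**Figure D4:**
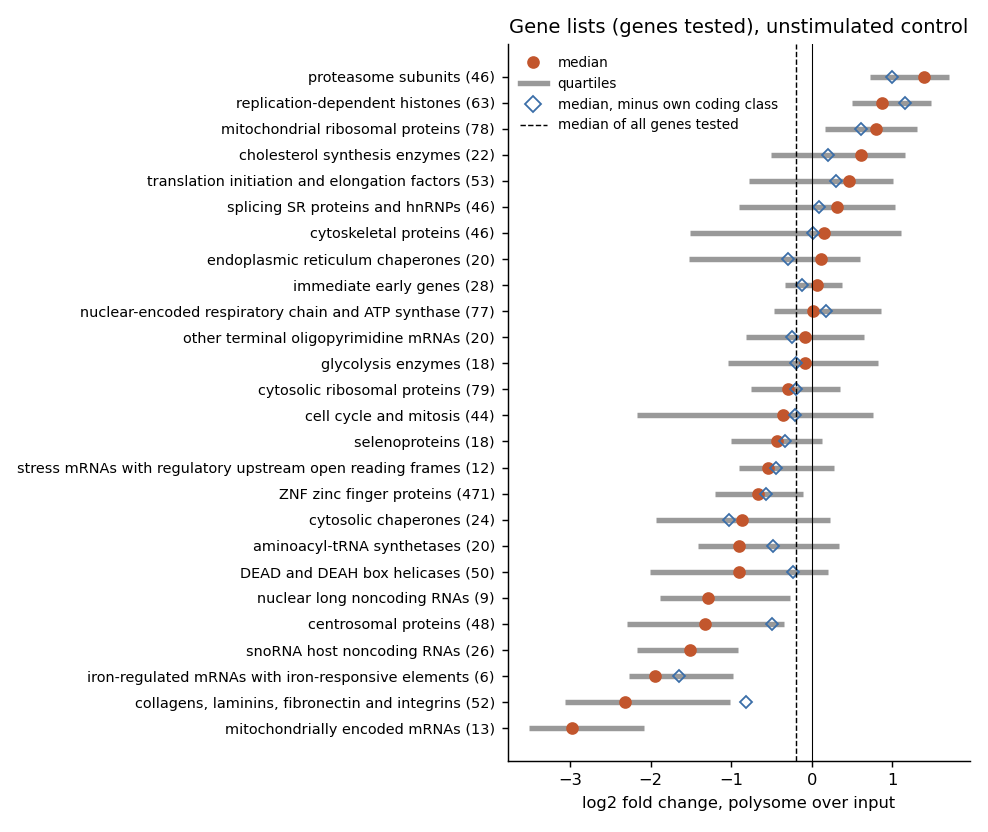
Median log2 fold change of polysome against input for each gene list (points) with quartiles (grey bars) and, as diamonds, the median of each gene minus the median of its own coding length class. The dashed line is the median of all genes tested, -0.20; proteasome subunits lie highest at 1.39 and mitochondrially encoded mRNAs lowest at -2.97.

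Cytosolic ribosomal proteins, the protein part of the ribosome itself, divided by coding length. All 79 genes were tested, and 18 were higher (22.8%), 29 lower (36.7%) and 32 not called, with a median of -0.29. Over all genes tested 17.4% were higher and 22.8% lower. All 9 genes under 300 coding nt were lower, with a median of -1.62. From 300 to 400 nt, 1 of 18 was higher and 10 lower, and from 400 to 500 nt, 2 of 22 were higher and 10 lower. From 500 to 600 nt, 3 of 8 were higher and none lower, and at 600 nt and over 12 of 22 were higher and none lower, with a median of 0.59. Spearman's correlation of coding length with the log2 fold change was 0.73 across the 79 genes, a description of genes that share libraries. The shortest is RPL41 (ENSG00000229117.9), a small basic protein of the large subunit, whose coding sequence is shown because the whole of it is 25 codons, with the start and stop codons in capitals (GENCODE 29, GRCh38):
RPL41: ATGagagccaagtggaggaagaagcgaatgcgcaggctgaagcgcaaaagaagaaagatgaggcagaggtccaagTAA

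RPL41 measured 219.7, 472, 289.9, 544 and 392 CPM in polysome libraries 1 to 5 and 2059, 1549, 1752, 3115 and 1770.5 CPM in input. Every polysome library was below every input library, and the gene was 5.34-fold lower (log2 fold change -2.42 ± 0.234 SE, edgeR adjusted p = 1.39e-10). RPS29, a small subunit protein of 168 coding nt, fell by 2.08. The largest rise was in a gene of 471 coding nt, a length class in which more genes fell than rose. RPL24, of the large subunit, measured 1245, 1329, 1423, 1167 and 1523 CPM on polysomes and 606, 576, 548, 790.3 and 665 CPM in input, a rise of 1.07 ± 0.151 (SE, edgeR adjusted p = 3.24e-07). RPL15, also of the large subunit, rose by 0.92. Ribosomal protein genes have many processed pseudogenes, and how the authors' quantification divided reads among them is not known here.

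**Figure D5:**
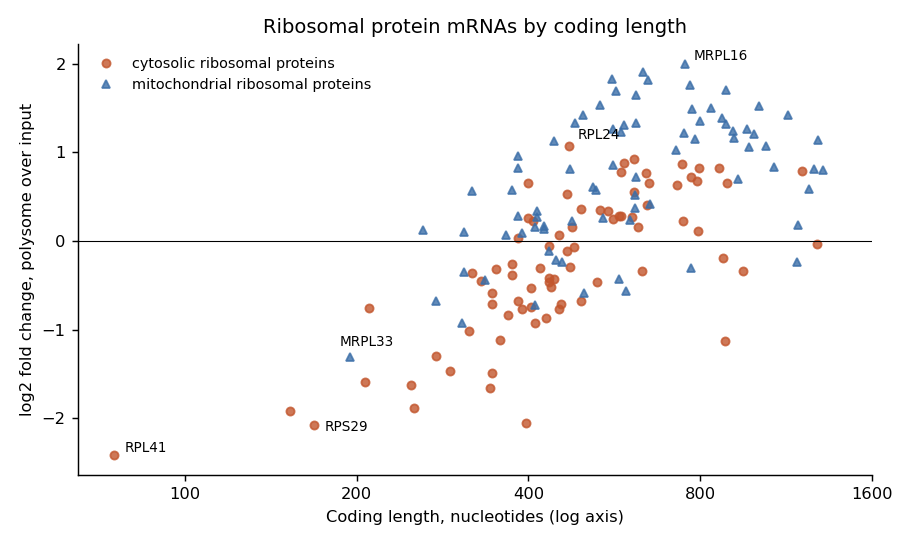
Log2 fold change of polysome against input (vertical axis) by coding length in nt (horizontal axis, log scale) for 79 cytosolic (circles) and 78 mitochondrial (triangles) ribosomal protein genes, 1 point per gene. All 9 cytosolic genes under 300 nt lie below 0, and none of the 22 cytosolic genes of 600 nt and over was called lower.

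Other mRNAs that begin with a terminal oligopyrimidine tract, a motif that couples translation to growth signals, went both ways. Of 20, 7 were higher and 7 lower (35.0% each), against 17.4% and 22.8% over all genes tested. Their median was -0.08. Without the libraries numbered 1, 5 were higher and 7 lower with a median of -0.42. BTF3, of the nascent polypeptide-associated complex, rose by 1.37. EEF2, the elongation factor that moves the ribosome along, measured 877, 969, 871, 1459 and 1118 CPM on polysomes and 3374, 3292, 3327, 3869.6 and 3675 CPM in input and fell by 1.73. PABPC1, the cytosolic poly(A)-binding protein, fell by 2.49. EEF1A1, which brings aminoacyl-tRNA to the ribosome, measured 5551, 2349, 1815, 3422 and 1505 CPM on polysomes and 7704, 7259, 7705, 8563 and 8148 CPM in input, where polysome library 1 was the highest of its group. It fell by 1.43 ± 0.227 (SE, edgeR adjusted p = 2.79e-06).

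Of 53 translation initiation and elongation factors tested, 21 were higher (39.6%) and 15 lower (28.3%), with a median of 0.46. Over all genes tested 17.4% were higher and 22.8% lower. EIF6, which keeps the ribosomal subunits apart, and EIF3I, a small subunit of the initiation factor eIF3, rose by 1.70 and 1.66 with coding sequences of 735 and 975 nt. The scaffold proteins EIF4G1 and EIF4G3, with 4797 and 4755 coding nt, fell by 3.02 and 3.45. Of 20 cytosolic aminoacyl-tRNA synthetases, which charge tRNAs, 12 were lower and 1 higher, with a median of -0.91. The one that was higher, named after its value was seen, was YARS1 at 425 ± 325 CPM on polysomes and 172 ± 125 CPM in input (SD, n = 5). EPRS1 and AARS1, the enzymes for glutamate and proline and for alanine, fell by 2.95 and 2.47. Library 1 held the largest share of synthetase counts in both fractions, 0.413% on polysomes and 0.438% in input, against 0.127% to 0.169% and 0.226% to 0.255% in the others. Without the libraries numbered 1, 2 synthetases were higher and 13 lower.

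Proteasome subunits and their assembly factors, the machinery that degrades ubiquitinated proteins, had the highest median of the lists, 1.39. Of 46 tested, 37 were higher (80.4%), 4 lower (8.70%) and 5 not called. Over all genes tested 17.4% were higher and 22.8% lower. They took 1.62%, 1.81%, 1.63%, 1.59% and 1.65% of the counts of the polysome libraries and 0.784%, 0.636%, 0.718%, 0.802% and 0.737% of the input libraries. The 2 ranges were far apart. PSMB1 (ENSG00000008018.9), a subunit of the catalytic core, measured 631, 721, 792, 809 and 951 CPM on polysomes and 188, 159, 193, 209 and 224 CPM in input, a 4.01-fold rise (log2 fold change 2.00 ± 0.177 SE, edgeR adjusted p = 2.11e-11). PSMB3, also of the core, rose by 1.98. The 4 that were lower were the regulatory subunit PSMD1 at -2.42, the activator PSME4 at -2.57 and the assembly factors PSMG3 and PSMG4 at -0.91 and -1.03, the last pair named after their values were seen. PSMD1 and PSME4 have 2859 and 5529 coding nt, where the median of the list is 816 nt. Compared gene by gene with the median of its own coding length class, the list had a median difference of 1.00.

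Proteins of the mitochondrial ribosome, encoded in the nucleus and imported, were also mostly higher. Of 78, 47 were higher (60.3%) and 5 lower (6.41%), with a median of 0.80. Over all genes tested 17.4% were higher and 22.8% lower. MRPL16 rose by 2.00 to 288 ± 79.1 CPM from 72.1 ± 10.2 CPM (SD, n = 5). The 5 that were lower were MRPL33 at -1.31, with 195 coding nt, and MRPL57, MRPL41, MRPL34 and MRPS24 at -0.93, -0.72, -0.68 and -0.59. The last 3 were named after their values were seen. Without the libraries numbered 1, 45 were higher and 2 lower, and those 3 were not called. Nuclear-encoded subunits of the respiratory chain and ATP synthase were mixed, with 28 of 77 higher (36.4%), 15 lower (19.5%) and a median of 0.01. Among the complex I subunits NDUFV1, of 1392 coding nt, rose by 1.69, and NDUFS1, of 2181 nt, fell by 1.78. UQCR11, a complex III subunit of 168 coding nt, fell by 1.94.

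Matrix, centrosomal, zinc finger and helicase genes had medians below that of all genes, and also below those of their own coding length classes. Of 52 collagens, laminins, integrins and fibronectin, which build and bind the extracellular matrix, 33 were lower (63.5%) and none higher, with a median of -2.31. Over all genes tested 22.8% were lower and 17.4% higher. The 77 genes of the list, tested or not, held between 0.0853% and 0.125% of polysome counts and between 0.295% and 0.703% of input counts. COL12A1, a collagen of 9189 coding nt, fell by 4.59 and FN1, fibronectin, by 3.76. COL1A1 fell by 2.55. Relative to the median of each gene's coding length class, the list's median was -0.81. Of 48 centrosomal proteins, 22 were lower (45.8%) and none higher, with a median of -1.32 and -0.50 relative to class. PCNT, the scaffold pericentrin, fell by 3.84. Of 471 ZNF zinc finger genes, most of them DNA-binding repressors, 23 were higher (4.88%) and 153 lower (32.5%). Their median was -0.67, and -0.56 relative to class. ZNF469 fell by 3.22 and ZNF638 fell by 3.19. Of 50 DEAD and DEAH box RNA helicases, 8 were higher (16.0%) and 28 lower (56.0%), or 3 and 28 without the libraries numbered 1. Their median was -0.91, and -0.24 relative to class, and DHX9, a nuclear helicase, fell by 3.54.

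Of 46 cytoskeletal proteins, 16 were higher (34.8%) and 18 lower (39.1%), against 17.4% and 22.8% over all genes tested. ACTB, beta-actin, measured 10918, 18285, 12992, 19874 and 10747 CPM on polysomes and 4373, 5913, 6878, 8539 and 8172 CPM in input, a rise of 1.10 ± 0.211 (SE, edgeR adjusted p = 4.95e-05). TAGLN, the actin-binding protein transgelin, of 603 coding nt, rose by 1.80. Among markers, CDH2, N-cadherin, fell by 1.68 and KRT8 by 1.25. KRT7, named after its value was seen, rose by 0.70, a call lost without the libraries numbered 1.

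Cytosolic chaperones were mostly lower: 13 of 24 were lower (54.2%) and 5 higher (20.8%), against 22.8% and 17.4% over all genes tested. Their median was -0.86, and -1.02 relative to coding length class. HSPH1, a large heat shock protein, fell by 3.02. The 5 that were higher were AHSA1, a small HSP90 activator, at 1.88, HSPB1 at 1.70, PTGES3 at 1.50, DNAJB1 at 1.26 and HSPE1 at 0.67, the last 3 named after their values were seen. Chaperones of the endoplasmic reticulum had 3 of 20 higher (15.0%) and 6 lower (30.0%), near the shares over all genes tested. HSPA5, the lumenal HSP70 also called BiP, measured 132, 63.8, 64.2, 69.2 and 72.7 CPM on polysomes and 517, 559.9, 432, 299 and 649.7 CPM in input. It fell by 2.61 ± 0.282 (SE, edgeR adjusted p = 1.44e-09), with polysome library 1 the highest of its group and still under every input library. HSP90B1, the lumenal HSP90, fell by 2.79. PPIB, a cyclophilin of the endoplasmic reticulum, and DNAJB11, a BiP co-chaperone, rose by 1.70 and 1.52. The third that was higher was DNAJB9 at 0.98, named after its value was seen.

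Of 18 glycolysis genes, 7 were higher and 7 lower (38.9% each), against 17.4% and 22.8% over all genes tested. PGAM1 and TPI1, enzymes of 762 and 747 coding nt, rose by 1.83 and 1.59, and hexokinase HK2, of 2751 nt, fell by 2.28. GAPDH measured 10699, 7179, 5299.8, 9923 and 3420.4 CPM on polysomes and 4903, 3290.1, 4345, 5625 and 4422 CPM in input. The groups overlapped, and its log2 fold change of 0.69 ± 0.254 (SE, edgeR adjusted p = 0.0272) was not called without the libraries numbered 1 (adjusted p = 0.125). Of 22 genes of the cholesterol synthesis list, 9 were higher (40.9%) and 4 lower (18.2%), with a median of 0.61. EBP, a sterol isomerase, rose by 1.64. Among those that were lower were the synthase HMGCS1 at -1.87 and LSS at -0.84, both named after their values were seen.

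Cell cycle genes had 11 of 44 higher and 22 lower. CDK2, a kinase of S phase entry, and PCNA, the sliding clamp of DNA replication, rose by 1.82 and 1.72. The mitotic motor KIF11 and topoisomerase TOP2A fell by 2.88 and 2.84. CDK2 was even among libraries, at 786, 659, 758, 873 and 746 CPM on polysomes and 255, 209, 196, 202 and 219 CPM in input. Of 46 SR proteins and hnRNPs, which direct splicing, 19 were higher (41.3%) and 15 lower (32.6%). SRSF3 rose by 1.93, and SRRM2, a scaffold of 8256 coding nt, fell by 3.60. Of 63 replication-dependent histone genes, whose mRNAs mostly lack a poly(A) tail, 9 were higher, none lower and 54 not called. The share called higher was 14.3%, under the 17.4% over all genes tested. The 67 genes of the list, tested or not, held only 0.0317% of polysome and 0.0192% of input counts. The linker histone H1-2 rose by 1.87.

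Ferritin stores iron and the transferrin receptor imports it, and their mRNAs hold iron-responsive elements, hairpins bound by the iron regulatory proteins IRP1 and IRP2 when iron is low. Binding in a 5′ UTR blocks initiation, whereas binding in the 3′ UTR of TFRC protects the mRNA from decay. The elements are shown because 5 of the 6 genes on this list were lower and none was higher. Over all genes tested 22.8% were lower and 17.4% higher. Among the genes called, SLC40A1 lost its call without the libraries numbered 1. Whether binding to the elements took part in these values was not tested. They were found in GENCODE 29 transcripts (GRCh38) as C, 5 bases, CAGTG, 1 base other than G, and 5 bases that pair with the first 5, with G:T pairs allowed, on the transcript strand only. The loop CAGTGN is in capitals. FTH1 holds it in exon 1, 5′ UTR, at chr11:61967573-61967602 on the minus strand, FTL in exon 1, 5′ UTR, at chr19:48965335-48965364 on the plus strand, and SLC40A1, the iron exporter ferroportin, in exon 1, 5′ UTR, at chr2:189580660-189580689 on the minus strand. TFRC holds 4 in the 3′ UTR in exon 19, minus strand, at chr3:196050978-196051007, chr3:196050574-196050603, chr3:196050509-196050538 and chr3:196050462-196050491, listed in that order:
FTH1: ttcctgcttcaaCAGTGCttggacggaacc
FTL: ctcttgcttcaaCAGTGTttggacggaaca
SLC40A1: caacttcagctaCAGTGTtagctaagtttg
TFRC 1: aattatcggaagCAGTGCcttccataatta
TFRC 2: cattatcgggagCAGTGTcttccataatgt
TFRC 3: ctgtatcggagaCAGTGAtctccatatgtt
TFRC 4: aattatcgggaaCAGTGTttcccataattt

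FTH1 (ENSG00000167996.16), the ferritin heavy chain of 549 coding nt, measured 446, 378, 307, 511 and 382 CPM on polysomes and 2992, 1641, 1575, 1617 and 1893 CPM in input. It was 4.80-fold lower without overlap (log2 fold change -2.26 ± 0.232 SE, edgeR adjusted p = 4.83e-10). FTL (ENSG00000087086.15), the light chain of 525 coding nt, measured 283, 286, 302, 519.7 and 313 CPM on polysomes and 1951, 1716, 2075, 2448 and 2188 CPM in input and was 6.09-fold lower (log2 fold change -2.61 ± 0.252 SE, edgeR adjusted p = 1.32e-10). Genes of 500 to 1000 coding nt had a median of 0.54, so both ferritin chains lay far below genes of their length. Both have processed pseudogenes, so their read numbers carry the same uncertainty as those of the ribosomal proteins.

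TFRC (ENSG00000072274.14), with its elements in the 3′ UTR, fell as well: 36.4, 25.8, 25.8, 24.9 and 16.9 CPM on polysomes against 119, 119, 151, 104 and 132 CPM in input (log2 fold change -2.27 ± 0.306 SE, edgeR adjusted p = 1.39e-07). SLC40A1 and SLC11A2 were named after their values were seen. SLC40A1 measured 0.580 CPM on polysomes and 1.82 CPM in input (edgeR adjusted p = 0.0484), a call that was lost without the libraries numbered 1 (adjusted p = 0.105). SLC11A2, an iron transporter in whose annotated transcript this motif was not found, had 0.33 ± 0.330 (SE, edgeR adjusted p = 0.458). The 6 genes had a median of -1.95, and -1.65 relative to coding length class.

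The same motif was present in 13 of 19909 annotated 5′ UTRs, 0.0653%, as a match of letters and not as a shown site. Of these 13 genes, 12 were tested, and 8 were lower and 1 higher. Over all genes tested 22.8% were lower and 17.4% higher. The 8 include FTH1, FTL and SLC40A1, which were already on the iron list and so add nothing new to it. Whether the motif took part in these values was not tested. Also among them were GART at -1.36, ADAR at -0.92 and ZBTB14 at -0.66, with CHRNA10 at -3.16 from 0.775 CPM in input. PRPF18 was higher at 0.86, a call lost without the libraries numbered 1 (edgeR adjusted p = 0.0578). These 5 were named after their values were seen.

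Of 12 stress mRNAs with regulatory upstream open reading frames, ATF4, ATF5, AMD1 and EPRS1 were lower (33.3%) and none was higher. Over all genes tested 22.8% were lower and 17.4% higher. Without the libraries numbered 1, 4 of the list were lower and 1 higher. ATF4, the transcription factor of the integrated stress response, is translated when initiation is limited. It measured 122, 104, 91.3, 173 and 142 CPM on polysomes and 489, 266, 232, 322 and 265 CPM in input, without overlap, and fell by 1.32 ± 0.186 (SE, edgeR adjusted p = 3.3e-07). ATF5 and AMD1 were named after their values were seen. AMD1, an enzyme of polyamine synthesis, measured 31.0 CPM on polysomes and 62.2 CPM in input. Of 18 selenoproteins, whose mRNAs decode a UGA stop codon as selenocysteine, 4 were higher (22.2%) and 7 lower (38.9%). SELENOW, of 261 coding nt, and the lipid peroxidase GPX4, of 591 coding nt, fell by 2.71 and 2.10. The 4 that were higher were SELENOS at 1.25, SELENOK at 1.19, TXNRD3 at 0.96 and TXNRD2 at 0.92, with SELENOK and TXNRD3 named after their values were seen.

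Of 28 immediate early genes, ATF3 was higher at 1.17 and JUND lower at -1.07, both named after their values were seen. That is 3.57% in each direction, against 17.4% higher and 22.8% lower over all genes tested. The list's median against mean input was 2.60 on the log2 scale in polysome library 1 and -0.86 to -0.24 in the others. With such a spread, few calls do not show that these genes were alike in the 2 fractions. Without the libraries numbered 1, in which this list was highest, 2 were higher and 3 lower. Of the 3 members of the IGF2BP family, RNA-binding proteins that stabilise target mRNAs, IGF2BP3 fell by 1.65, from 35.2 ± 11.3 CPM in input to 11.2 ± 6.84 CPM (SD, n = 5). IGF2BP1 had -1.11 and was called, and IGF2BP2 had -0.33 and was not, both named to account for the family.

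The same comparison in the other 3 settings of the series shares no library with this one. There 39.3% (IL-13, control hairpin), 38.5% (unstimulated, IGF2BP3 hairpin) and 39.3% (IL-13, IGF2BP3 hairpin) of genes were called. Of the genes called in resting control cells, 84.1%, 82.6% and 82.1% were called there too, which was 85.9%, 86.3% and 83.8% of the calls of those settings. All but 1, 2 and 2 of the shared calls had the same direction. The difference between settings, tested as an interaction with edgeR, was called for 0 genes in each case, and an unadjusted p under 0.05 was reached by 326, 283 and 335 genes. Proteasome subunits had medians of 1.42, 1.33 and 1.33 there, and the iron list -2.35, -1.88 and -2.04. In these settings FTL had log2 fold changes of -2.95, -2.22 and -2.49, PRKDC of -5.42, -5.34 and -5.11, and RPL41 of -2.52, -2.45 and -2.67. DHX29, without a count on polysomes in resting control cells, had smaller changes of -2.21, -2.59 and -2.53 that were not called in any of the 3 (edgeR adjusted p = 0.117, 0.0876 and 0.0721). ALMS1 was called in all 3, at -3.43, -6.04 and -2.61. Histones had medians of -0.84, 0.32 and 0.82, against 0.87 in resting control cells, and this spread was the widest among the lists of 10 or more genes tested.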

How the data were processed

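The deposited table gave an estimated count per gene and library, not scaled for depth, and TPM, scaled by the authors for length and depth, per the file headers. Per the submitters' processing notes Trimmomatic, Salmon, MultiQC and DESeq2 were used. The genome build and annotation are not given in the sources used here, and the labels name both an NEB Ultra II stranded and a Truseq kit. The design had assumed whole counts and a deposited length. Estimated counts were therefore rounded, and lengths, GC content and biotypes came from 1 transcript per gene of GENCODE 29 (GRCh38), joined by unversioned Ensembl ID for 96.0% of the 16735 genes tested of 62263. The filter filterByExpr, given the 8 groups, kept at least 99.9% of every library's counts.

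In edgeR 4.0.16 (R 4.3.3), a model with 1 mean per group was fitted to the 40 libraries (TMM, quasi-likelihood test, 32 residual degrees of freedom, Benjamini-Hochberg adjustment over all genes, calls under 0.05). Shares of counts and weighted lengths were compared by two-sided exact permutation tests over 252 arrangements. Counting floors of 3 counts cover counting error only. On simulated data with 200 changed genes, 83% of 4-fold changes among 16189 genes and 32% of 2-fold changes among 16157 genes were recovered, with 2.92% and 4.48% of the calls false. The simulation changed equally many genes up and down and gave every other gene the same mean in all groups. In the real comparison 40.2% of genes were called, so these rates may not hold for it. No pair of libraries was a copy of another (lowest chi-square per degree of freedom 41.5).

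Always named were MALAT1, NEAT1, ACTB, GAPDH, EEF1A1, ATF4, FTH1 and IGF2BP3, with the 2 largest called changes per list and direction and the 5 largest over all genes, each at 10 CPM or more in a group without overlap, and the 3 genes of highest input CPM in the extreme length classes. Some genes that met this rule were left out for length, and some items are not reported here, although the counts of genes include them. The comparison, the lists and this rule were chosen with earlier results of these data known. Alternatives were DESeq2 1.42.0 size factors, its Wald test, other filters, fewer libraries, a replicate block and a length offset. Chosen after seeing the data were the fit without libraries of low depth, the lengths from count over TPM, and, for coding length classes, GC classes, biotypes and named genes, the scaling, filter, GC and library 1 alternatives.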

Additional observations from a re-analysis of the deposited data

Results flagged for a closer look

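In each fraction, the CPM of 83 genes and the shares of counts of 24 classes were checked, together 214 groups of 5 library values. Of these, 12 had a library apart from the rest, with a gap over 0.71 of the group's range, and chance gives about 1 in 20. All 12 were CPM values of genes, so the rate among the genes was above that over all groups. Input library 1 was highest for FTH1 at 2992 CPM (next 1893), GAS5 at 109.9 CPM (next 55.7) and HK2 at 22.2 CPM (next 12.3), and lowest for SRSF3 at 107 CPM (next 229). Polysome library 1 was highest for HSPA5 at 132 CPM (next 72.7) and for CDH2 at 45.1 CPM (next 22.5). Input library 4 was highest for RPL15 at 1931 CPM (next 1328) and SELENOW at 60.4 CPM (next 35.3). Input library 2 was highest for NEAT1 at 116 CPM (next 73.4) and lowest for BTF3 at 407 CPM (next 436). Polysome library 3 was highest for HSPH1 at 12.5 CPM (next 4.79), and polysome library 4 for FTL at 519.7 CPM (next 313). All 12 genes were called with any 1 library left out.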

How the results depend on the processing

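No result changed direction where it was called. The count of genes was 2910 higher and 3812 lower, and it stayed within 1.5 times under each alternative, from 5380 calls in all among genes of at least 10 CPM to 7164 with the DESeq2 Wald test, and between 6159 and 6768 with each library left out in turn. The median difference between coding classes of 4000 nt and over and of 500 to 1000 nt, -2.48 on the log2 scale, was -1.92 within transcripts of at least 60% GC and -1.59 and -2.03 within transcripts of 3000 to 5000 and 5000 to 8000 nt, and -2.64 to -2.38 with a library left out. The difference between transcripts of 8000 nt and over and of 1000 to 2000 nt, -1.78, was -0.86 under 40% GC, -2.23 and -2.22 at 50 to 55% and 55 to 60% GC and -3.11 at 60% GC and over, and -1.88 to -1.63 with a library left out. The cause was not tested. The weighted mean lengths gave an unadjusted exact p of 0.0317 without input library 4 (all 3 lengths) or polysome library 1 (transcript and coding length). Genes with over 1.5-fold different transcript length were 0.626% to 1.14% of genes over the alternatives. List medians near 0 (terminal oligopyrimidine, respiratory chain, endoplasmic reticulum chaperone and glycolysis genes) changed sign in at least 1 fit. The upstream open reading frame list did so too, from -0.54 to 0.18 without input library 1. The immediate early list, at 0.07 as reported, moved much further. Its median ranged from -1.24, without polysome library 1, to 1.41 over the alternatives. The medians of transcripts under 1000 nt and of the GC classes from 50% upwards also changed sign with a library left out. Of the single genes, GAPDH lost its call in 4 of 10 fits that left out a library and SLC40A1 in 9 of 10 and with DESeq2 size factors. Without the libraries numbered 1, 4 against 4 allow no exact p under 0.0286, so their shares of counts were compared by value only. The replicate numbers did not pair all samples. For genes of at least 10 CPM, each library's deviation from the mean of its own fraction was taken on the log2 scale. These deviations, and not the levels themselves, correlated by 0.62, 0.02, 0.62, 0.17 and 0.47 between same-numbered polysome and input libraries. Libraries 2 and 4 were closer to another number. The fit with the replicate block on the 10 libraries called 2899 genes higher and 3301 lower of 14521, against 2686 and 2768 without it. Depth limits genes near the floor. In simulated data 2-fold changes were mostly missed, but only 200 genes were changed there, far fewer than were called here, so that rate may not hold for this comparison.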
